A study of Homo sapiens with 2 samples.

Results

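The NOTCH pathway genes described here are the receptors NOTCH1, NOTCH2 and NOTCH3, the ligands DLL1, DLL3 and JAG1, the transcriptional repressors HES1, HES4 and HEY1, and the glycosyltransferase LFNG. The 10 genes were taken by symbol from a written list that was chosen with earlier results of these data known. Of them, 9 were listed in both libraries, out of 33592 genes listed in either library and 27540 in both. DLL1 was not analysed here, since its symbol did not match an entry. The cells were H1 (WA01) human embryonic stem cells, an established pluripotent line, routinely cultured, dissociated and stained with a viability dye. The 2 libraries were a ZNF263 homozygous knockout (KO) and the wild type (WT). ZNF263 is a zinc finger transcription factor, and the study's title places it in the exit of these cells from pluripotency. The labels give no medium, no differentiation treatment and no statement on whether the KO line is 1 clone.

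Signalling through NOTCH runs between neighbouring cells. Ligands of the Delta-like and Jagged families on one cell bind a NOTCH receptor on the next, the receptor is cut, and its intracellular part enters the nucleus, where it joins the DNA-binding protein RBPJ and switches on genes such as HES1. In the early neural lineage the HES and HEY repressors hold back proneural factors.

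Promoter sequences show where the letters bound by RBPJ stand at the genes it is known to act on. The windows run from 250 bases before the annotated start to 50 bases from it on, and were matched by symbol in RefSeq (GRCh38.p14) for 7 of the 10 genes, which are HES1, HES4, JAG1, LFNG, NOTCH1, NOTCH2 and NOTCH3. The RBPJ core GTGGGAA, searched on both strands, stood in the windows of HES1 and HES4, that is 2 of the 7, and in 6.25% of all 35116 windows. HEY2, a relative of HEY1 that is described below because it was the one measured pathway gene at least 1.5-fold higher in KO shallow barcodes, held the core 2 times. The windows of HES6 and TLE4, also described below, were searched too and held the core 0 times. Of all windows, 0.248% held it 2 or more times. Positions count from 0 at the start base, and the core lay at -85 to -79 in HES1, at -77 to -71 in HES4, and at -213 to -207 and -4 to 2 in HEY2. The first 260 bases of these 3 windows are printed 5′ to 3′ with the core or its reverse complement in capitals, for HES1 at chr3:194135898-194136157 on the plus strand, for HES4 at chr1:1000088-1000347 on the minus strand and for HEY2 at chr6:125749382-125749641 on the plus strand.
HES1: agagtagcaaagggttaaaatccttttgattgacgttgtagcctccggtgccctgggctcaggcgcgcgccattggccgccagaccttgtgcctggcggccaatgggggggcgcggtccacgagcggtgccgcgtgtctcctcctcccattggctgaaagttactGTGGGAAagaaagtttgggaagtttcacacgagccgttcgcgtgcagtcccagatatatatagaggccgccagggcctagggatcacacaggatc
HES4: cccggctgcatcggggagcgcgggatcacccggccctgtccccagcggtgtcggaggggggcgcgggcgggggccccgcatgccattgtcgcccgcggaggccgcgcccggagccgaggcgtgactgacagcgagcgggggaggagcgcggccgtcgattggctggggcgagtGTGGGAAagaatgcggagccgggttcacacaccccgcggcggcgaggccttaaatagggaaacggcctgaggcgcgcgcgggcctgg
HEY2: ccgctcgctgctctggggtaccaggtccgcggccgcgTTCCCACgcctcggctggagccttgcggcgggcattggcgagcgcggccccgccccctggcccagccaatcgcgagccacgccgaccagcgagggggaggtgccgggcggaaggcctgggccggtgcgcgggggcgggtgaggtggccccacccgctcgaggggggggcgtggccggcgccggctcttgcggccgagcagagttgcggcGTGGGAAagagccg
The N-box CACNAG, the letters that HES1 itself binds, occurred 4 times in the full HES1 window, against 0.293% of all windows with 4 or more. It occurred 2 times in the NOTCH1 window, with the 2 matches overlapping, and once in those of NOTCH2 and NOTCH3, while 38.0% of all windows held at least 1. The letters GGGAGGA from the core of the ZNF263 motif stood in 5 of the 7 windows, those of HES1, HES4, LFNG, NOTCH1 and NOTCH2, and in 18.1% of all windows. The E-box CACGTG stood in 0 of the 7 windows and in 7.26% of all. These matches describe letters only. No binding was measured here.

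Unique molecular identifiers (UMIs), each marking 1 captured RNA molecule, numbered 54559376 over 841049 barcodes in KO and 60578040 over 842407 barcodes in WT. Deep barcodes are those that held 1000 UMIs or more from 500 genes or more, with no more than 20% of UMIs mitochondrial. They numbered 2286 in KO, with a median of 1289.5 UMIs, and 2935 in WT, with a median of 1328. Shallow barcodes, which held from 250 up to but not including 1000 UMIs, numbered 50551 in KO and 56837 in WT and held 38.6% of the KO UMIs and 39.3% of the WT UMIs. The libraries share 20 deep and 4665 shallow barcode sequences, out of 884736 sequences that the barcode design allows. UMIs were summed over each set and given as CPM, counts per 1000000 UMIs of the set. All intervals are 95% intervals and cover counting error only. With 1 library per genotype there was no replicate and no test between genotypes, and the shallow barcodes are other parts of the same libraries and no replicates. Whether fewer cells carry a transcript or each cell carries less cannot be told apart in such sums. ZNF263 itself (chr16:3283491-3301401) had 7.57 CPM in KO and 17.8 CPM in WT deep barcodes, with a log2 ratio of KO over WT of -1.24 (-1.92 to -0.60), and 8.54 CPM in KO and 15.6 CPM in WT shallow barcodes. Reads assigned to it remained in the KO library, and the labels do not say what the knockout removed. The annotation has 4 genes that overlap ZNF263, LINC00921, AJ003147.3 and AC004232.3 on its strand and TIGD7 on the other, so reads of these could be among them. In barcodes of 10 to 99 UMIs, ZNF263 had 11.7 CPM in KO and 12.7 CPM in WT.

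In CPM, both the ligand JAG1 and the target HES1 were lower by more than 2-fold in KO, in deep and in shallow barcodes. The receptors had ratios nearer 0. Of the 9 listed genes, 7 had a mean of at least 5 CPM and were counted as measured. A ratio at least 1.5-fold lower in KO was found for 3 of these 7 in deep barcodes, namely JAG1, HES1 and LFNG, against 13.0% of all 10129 genes measured there. In shallow barcodes NOTCH1 and DLL3 joined them, giving 5 of 7, against 10.1% of 10148 genes. In each set 0 of 7 were at least 1.5-fold higher in KO, where 3.94% of all genes were in deep and 2.79% in shallow barcodes. The median log2 ratio over the 7 was -0.49 in deep barcodes, where that of all measured genes was -0.14, and -0.76 in shallow barcodes, where that of all was -0.15. LFNG passed the minimum only through WT, the library where it was higher, and its deep interval holds 0. At a minimum mean of 10 CPM, which leaves out LFNG and DLL3, 2 of 5 listed genes were at least 1.5-fold lower in KO deep barcodes, against 9.89% of all genes. JAG1 is among these and passed that minimum only through WT, with 6.45 CPM in KO and 18.3 CPM in WT. HES4 and HEY1 did not pass the minimum of 5 CPM.

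**Figure D1:**
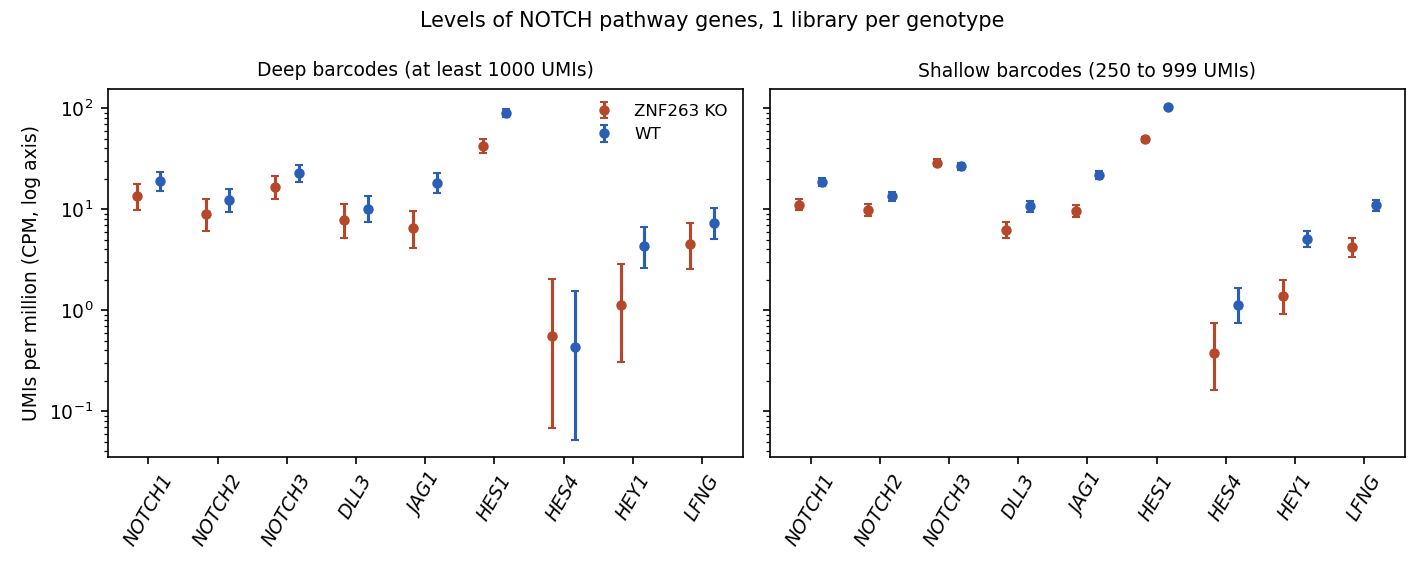
Level of each listed gene in CPM (log axis), KO left of WT, in deep barcodes (left panel) and shallow barcodes (right panel); points are the 1 library per genotype and bars are 95% Poisson intervals. The KO and WT intervals of HES1 and JAG1 are apart in both panels, with HES1 at 42.6 CPM in KO and 89.7 CPM in WT and JAG1 at 6.45 CPM in KO and 18.3 CPM in WT deep barcodes.

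HES1 (chr3:194136148-194138732), the basic helix-loop-helix repressor whose promoter is shown above, had 152 UMIs or 42.6 CPM in KO deep barcodes, against 417 UMIs or 89.7 CPM in WT. It was therefore 2.11-fold lower in KO (1.74 to 2.55). The shallow barcodes held 1038 HES1 UMIs or 49.2 CPM in KO and 2414 UMIs or 101 CPM in WT, which is 2.06-fold lower in KO. No antisense or overlapping gene is annotated at HES1, so its reads have no such second source in the annotation. HEY1 (chr8:79764010-79767767), a related repressor, was sparse, with 4 UMIs in KO and 20 UMIs in WT deep barcodes and log2 ratio -1.94 (-3.95 to -0.36). Its shallow counts were 29 UMIs in KO and 120 UMIs in WT, 3.67-fold lower in KO. HES4 (chr1:998964-1000097) had 2 UMIs in KO and 2 UMIs in WT deep barcodes, too few to show a difference. In shallow barcodes it had 8 UMIs in KO and 27 UMIs in WT, with log2 ratio -1.58 (-2.93 to -0.40). Summed over the 3 repressor genes, the level was 44.3 CPM in KO and 94.4 CPM in WT deep barcodes, of which HES1 made up most.

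JAG1 (chr20:10637684-10673999), the Jagged ligand, had 23 UMIs or 6.45 CPM in KO deep barcodes and 85 UMIs or 18.3 CPM in WT, 2.84-fold lower in KO (1.77 to 4.71). In shallow barcodes it had 203 UMIs or 9.63 CPM in KO and 521 UMIs or 21.9 CPM in WT, with log2 ratio -1.19 (-1.43 to -0.95). An antisense gene, AL050403.2, overlaps JAG1, and whether the authors' counting used strand is not given in the sources used here, so its reads could be part of these counts. DLL3 (chr19:39498947-39508469), a divergent Delta-like protein known to act within the cell rather than as an activating ligand, had 28 UMIs or 7.85 CPM in KO and 47 UMIs or 10.1 CPM in WT deep barcodes. The interval of its log2 ratio, -0.36 (-1.09 to 0.34), held 0. In shallow barcodes DLL3 had 132 UMIs or 6.26 CPM in KO and 253 UMIs or 10.6 CPM in WT, and its log2 ratio of -0.76 (-1.08 to -0.46) did not hold 0. Ligands as a pair summed to 14.3 CPM in KO and 28.4 CPM in WT deep barcodes, and to 15.9 CPM in KO and 32.5 CPM in WT shallow barcodes.

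LFNG (chr7:2512529-2529177), the Lunatic fringe enzyme that adds a sugar to NOTCH receptors and changes which ligands they answer to, had 16 UMIs or 4.48 CPM in KO and 34 UMIs or 7.31 CPM in WT deep barcodes. Its log2 ratio there was -0.71 (-1.66 to 0.19), an interval that holds 0. The shallow barcodes gave 89 UMIs or 4.22 CPM in KO and 260 UMIs or 10.9 CPM in WT, 2.59-fold lower in KO.

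The 3 receptors had log2 ratios nearer 0 than JAG1 and HES1 in both barcode sets. In deep barcodes the intervals of all 3 overlap those of HES1 (-1.35 to -0.80) and JAG1 (-2.24 to -0.82). The deep interval of NOTCH2 was -1.12 to 0.20. In shallow barcodes only the interval of NOTCH1 overlaps those of HES1 and JAG1. NOTCH1 (chr9:136494433-136546048) had 48 UMIs or 13.5 CPM in KO and 88 UMIs or 18.9 CPM in WT deep barcodes, and 234 UMIs or 11.1 CPM in KO and 444 UMIs or 18.7 CPM in WT shallow barcodes. Its log2 ratio was -0.49 (-1.03 to 0.03) in deep and -0.75 (-0.99 to -0.52) in shallow barcodes. An antisense gene, AL592301.1, overlaps NOTCH1, with the same limit on strand as for JAG1. NOTCH2 (chr1:119911553-120069662) had 8.97 CPM in KO and 12.3 CPM in WT deep barcodes, and 9.77 CPM in KO and 13.4 CPM in WT shallow barcodes, a log2 ratio of -0.45 in each set. NOTCH2 is uncertain, since the NOTCH2NL genes share part of its sequence and the counting could split reads between them. In shallow barcodes NOTCH2NLC had 28 UMIs in KO and 43 in WT, and NOTCH2NLB 6 and 24. NOTCH2 itself had 206 UMIs in KO and 318 in WT there. NOTCH3 (chr19:15159038-15200995) had 16.5 CPM in KO and 22.6 CPM in WT deep barcodes, with log2 ratio -0.45 (-0.93 to 0.02). The shallow barcodes put NOTCH3 at 28.7 CPM in KO and 26.6 CPM in WT, with log2 ratio 0.11 (-0.05 to 0.27). NOTCH3 was thus the one measured gene of the list that was not lower in KO in both sets. Over the 3 receptors the summed log2 ratio was -0.46 (-0.77 to -0.16) in deep and -0.24 (-0.36 to -0.13) in shallow barcodes. For the 3 repressors it was -1.09 (-1.36 to -0.83) in deep and -1.08 (-1.18 to -0.98) in shallow barcodes, intervals that lie apart from those of the receptors. NOTCH3 gave 605 of the 1045 receptor UMIs in KO shallow barcodes and 632 of 1394 in WT, so it holds the receptor sum nearer 0 there.

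**Figure D2:**
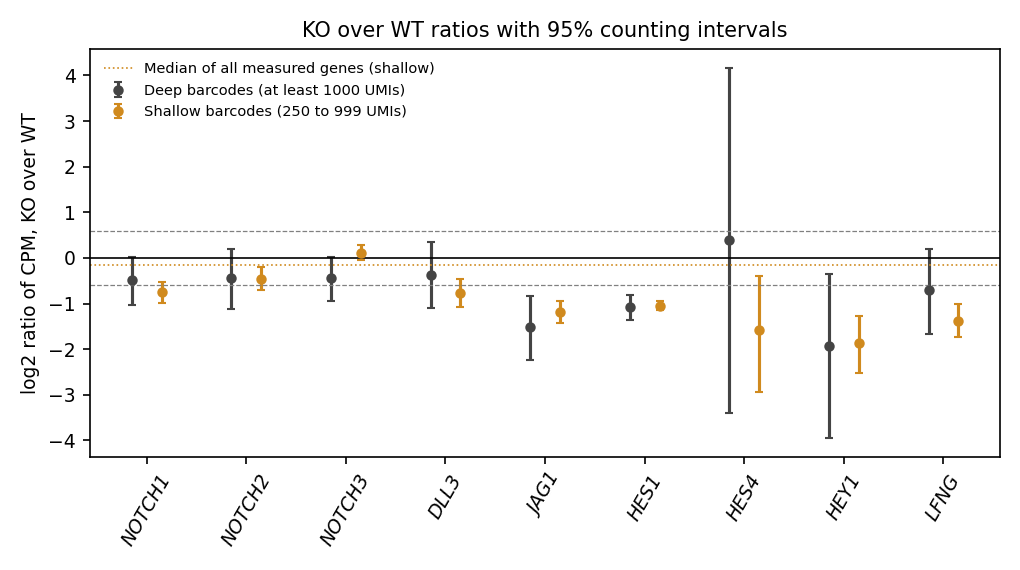
Log2 ratio of CPM, KO over WT, for each listed gene in deep (grey) and shallow (orange) barcodes with exact 95% intervals; dashed lines mark 1.5-fold and the dotted line the median of all measured genes in shallow barcodes. HES1 lies at -1.07 and -1.04 and JAG1 at -1.50 and -1.19, while NOTCH3 lies at -0.45 in deep and 0.11 in shallow barcodes.

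The point values of these ratios varied over depth less for HES1 and JAG1 than for NOTCH3 and LFNG, but intervals were wide. At 2000 UMIs or more the interval was -2.85 to -0.36 for JAG1 and -1.04 to 0.72 for NOTCH3. Barcodes were divided into 5 ranges that began at 100, 250, 500, 1000 and 2000 UMIs. HES1 was lower in KO in 5 of 5 ranges, with intervals below 0 in each and log2 ratios from -1.13 to -0.94. From the shallowest range to the deepest, its level was 54.7, 49.6, 48.7, 43.1 and 41.4 CPM in KO, against 110, 103, 100, 94.4 and 79.4 CPM in WT. Both libraries thus had lower HES1 point values in deeper barcodes. JAG1 was lower in KO with an interval below 0 in 5 of 5 ranges, from -1.51 to -0.97. NOTCH1 was lower in 5 of 5 ranges, from -1.01 to -0.41, with the interval below 0 in 3. Its ratio of -1.01 in the shallowest range was as low as that of HES1 there, -1.01. NOTCH3 had, in the same order, 28.2, 28.7, 28.6, 15.7 and 18.4 CPM in KO, against 27.3, 26.9, 25.7, 23.6 and 20.4 CPM in WT. Its KO level was lower in the 2 deepest ranges and slightly higher in the others, and only the range from 1000 to under 2000 UMIs gave an interval that did not hold 0, at -0.59 (-1.18 to -0.01). LFNG was lower in 4 of 5 ranges. At 2000 UMIs or more it had 9 UMIs in KO and 4 UMIs in WT, with log2 ratio 1.61 (-0.23 to 3.76).

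**Figure D3:**
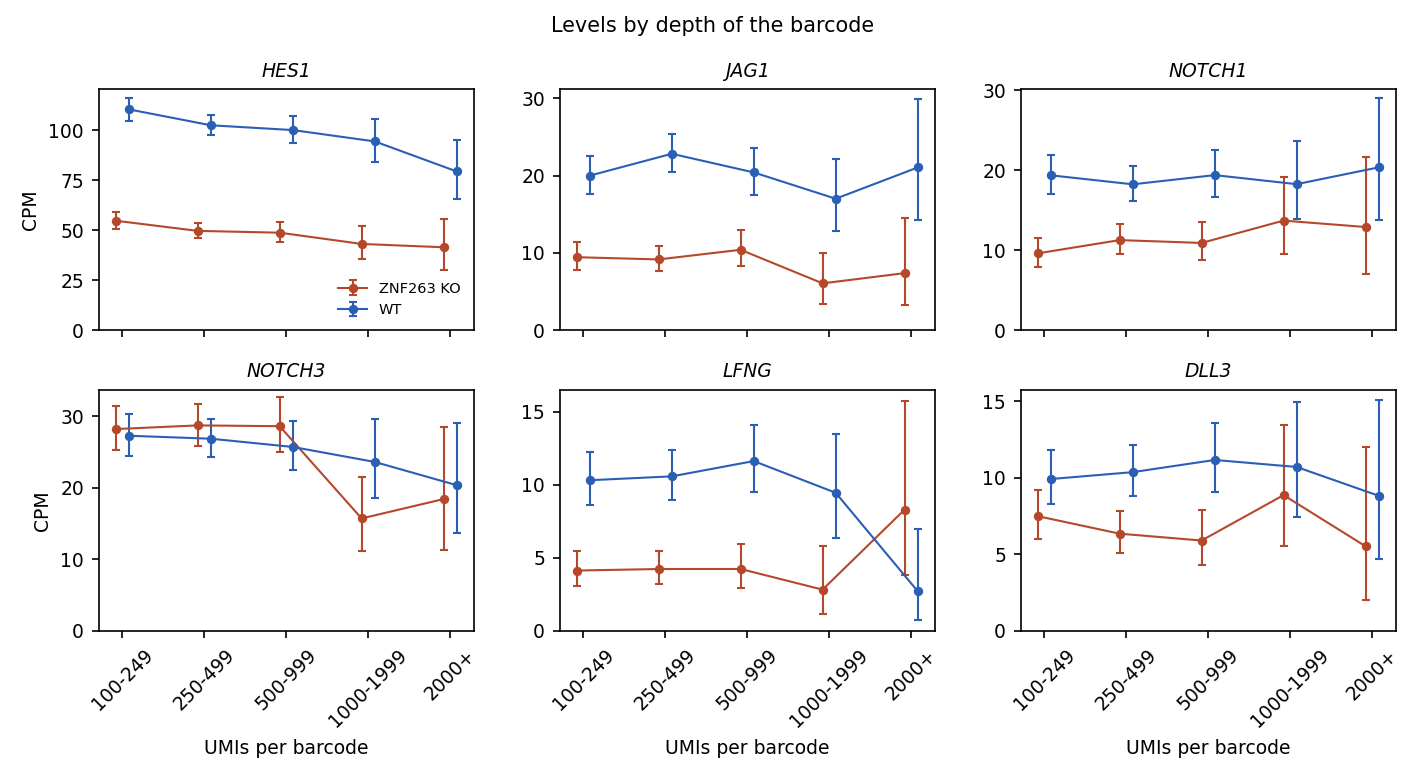
Level in CPM against UMIs per barcode in 5 ranges, KO (red) and WT (blue) with 95% Poisson intervals, for HES1, JAG1, NOTCH1, NOTCH3, LFNG and DLL3. The HES1 points of KO, from 54.7 to 41.4 CPM, lie under those of WT, from 110 to 79.4 CPM, in each range, while the NOTCH3 points cross.

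Few deep barcodes held a UMI of any of these genes. To compare the libraries at equal depth, 1000 UMIs were drawn at random from each deep barcode, and all barcodes held enough for this. A HES1 UMI was then found in 3.94% of KO barcodes (3.18 to 4.82, exact Clopper-Pearson interval) and in 8.59% of WT barcodes (7.60 to 9.66). Without thinning the shares were 6.12% in KO and 12.2% in WT. Barcodes with 10 to 99 UMIs are too shallow to be read as cells here, and a draw of the same size from their summed counts would give 4.99% in KO and 9.45% in WT. The HES1 shares are therefore no higher than these sums give, and no cell type that should lack HES1 was available for a second background. Any listed gene was seen in 9.45% of KO and 16.4% of WT barcodes, against 11.7% for KO and 19.0% for WT from the same sums. At this depth the shares do not separate barcodes that express the genes from barcodes with background UMIs, and the difference between genotypes is one of the pooled RNA.

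Counts within single barcodes were as sparse. UMIs of a ligand and of a repressor gene stood together in 4 thinned KO barcodes, where the product of the shares gives 1.45. They stood together in 9 thinned WT barcodes, where it gives 6.96. In KO all 4 paired DLL3 with HES1, and 0 held JAG1 with a repressor gene. In WT, JAG1 stood with a repressor gene in 7 barcodes and DLL3 in 2. For a receptor with a repressor gene the numbers were 1 KO barcode against 3.53 and 13 WT barcodes against 12.9. These counts are too low to show that ligand, receptor and target transcripts are found in the same cells or apart.

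Neural genes as a list were lower in KO as well. A list of 30 neural markers summed to 963 CPM in KO and 1704 CPM in WT deep barcodes, with 14 of its 20 measured members at least 1.5-fold lower in KO and 1, POU3F1, higher, against 13.0% lower and 3.94% higher among all genes. CRABP1, a retinoic acid binding protein, made up 269.9 CPM of this in KO and 511.8 CPM in WT. In shallow barcodes the list summed to 969 CPM in KO and 1947 CPM in WT. Of the 30 neural markers, 1 (EN2) had no UMI in KO deep barcodes and 0 had none in WT. Markers of pluripotency summed to 5785 CPM in KO and 4816 CPM in WT, with 0 of 16 measured members at least 1.5-fold lower in KO and 6 higher. POU5F1 had 77.1 CPM in KO and 50.1 CPM in WT, so the labelled cell type had its markers in both libraries. Primitive streak markers summed to 14.9 CPM in KO and 40.0 CPM in WT, with 2 of 10 undetected in KO and 1 in WT. Endoderm markers stood at 19.1 CPM in KO and 15.3 CPM in WT deep barcodes, where AFP alone gave 53 of 68 UMIs in KO and 31 of 71 UMIs in WT, and at 19.3 CPM in KO and 26.1 CPM in WT shallow barcodes. In deep barcodes 6 of 10 were undetected in KO, SOX17 and GATA6 among them, and 2 in WT. Mesoderm and endothelium markers stood at 36.4 CPM in KO and 32.7 CPM in WT deep barcodes, where the interval of the log2 ratio held 0 (-0.19 to 0.50) and KDR alone gave 121 of 130 UMIs in KO and 129 of 152 UMIs in WT. In shallow barcodes they stood at 37.9 CPM in KO and 44.7 CPM in WT, with log2 ratio -0.24 (-0.37 to -0.10). Of these 15 markers 11 were undetected in KO deep barcodes and 7 in WT. Amnion and trophoblast markers stood at 8.41 CPM in KO and 14.2 CPM in WT, with 8 of 12 undetected in KO and 4 in WT. The part of the pluripotency and primitive streak differences in the NOTCH results was not tested.

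HES1 was lower in KO also among barcodes without a neural UMI. After thinning, 894 KO and 722 WT deep barcodes held 0 UMIs of the neural list, and 1392 KO and 2213 WT barcodes held at least 1. Among barcodes without a neural UMI, HES1 had 34.7 CPM in KO and 69.3 CPM in WT, which is a KO level 0.50 times that of WT (0.31 to 0.80). Among barcodes with one, it had 47.4 CPM in KO and 102 CPM in WT, with log2 ratio -1.11 (-1.53 to -0.71). Within WT, HES1 was higher in barcodes with a neural UMI than without, by 0.56 on the log2 scale (0.11 to 1.03), and within KO the difference was 0.45 (-0.19 to 1.12). In shallow barcodes the same difference in WT was smaller, 0.22 (0.07 to 0.37) for UMIs of the neural genes under 50 CPM, and it was -0.09 (-0.23 to 0.05) when barcodes were divided by CRABP1 UMIs. JAG1 had 10.1 CPM in KO and 18.5 CPM in WT among barcodes with a neural UMI. Among those without, it rested on 1 UMI in KO and 9 UMIs in WT. Within WT deep barcodes, the log2 ratio with over without a neural UMI was 0.57 (-0.49 to 1.80) for JAG1. For NOTCH1 it was 0.04 (-0.89 to 1.07) and for NOTCH3 -0.001 (-0.84 to 0.91). For NOTCH2 it was 1.75 (0.07 to 4.11), on 31 UMIs with and 3 without. In shallow barcodes with 0 UMIs of neural genes under 50 CPM, HES1 had 948 UMIs in KO and 1939 UMIs in WT, with log2 ratio -1.03 (-1.15 to -0.92), and JAG1 had 184 UMIs in KO and 423 UMIs in WT, with log2 ratio -1.20 (-1.46 to -0.95). A barcode with 0 neural UMIs at these depths may still hold a cell that expresses such genes. Barcodes of 10 to 99 UMIs, too shallow to be read as cells here, had like ratios of KO over WT. There the log2 ratio was -0.95 (-1.07 to -0.84) for HES1 and -1.09 (-1.34 to -0.84) for JAG1. The part of background UMIs in the difference among barcodes without a neural UMI was not tested.

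**Figure D4:**
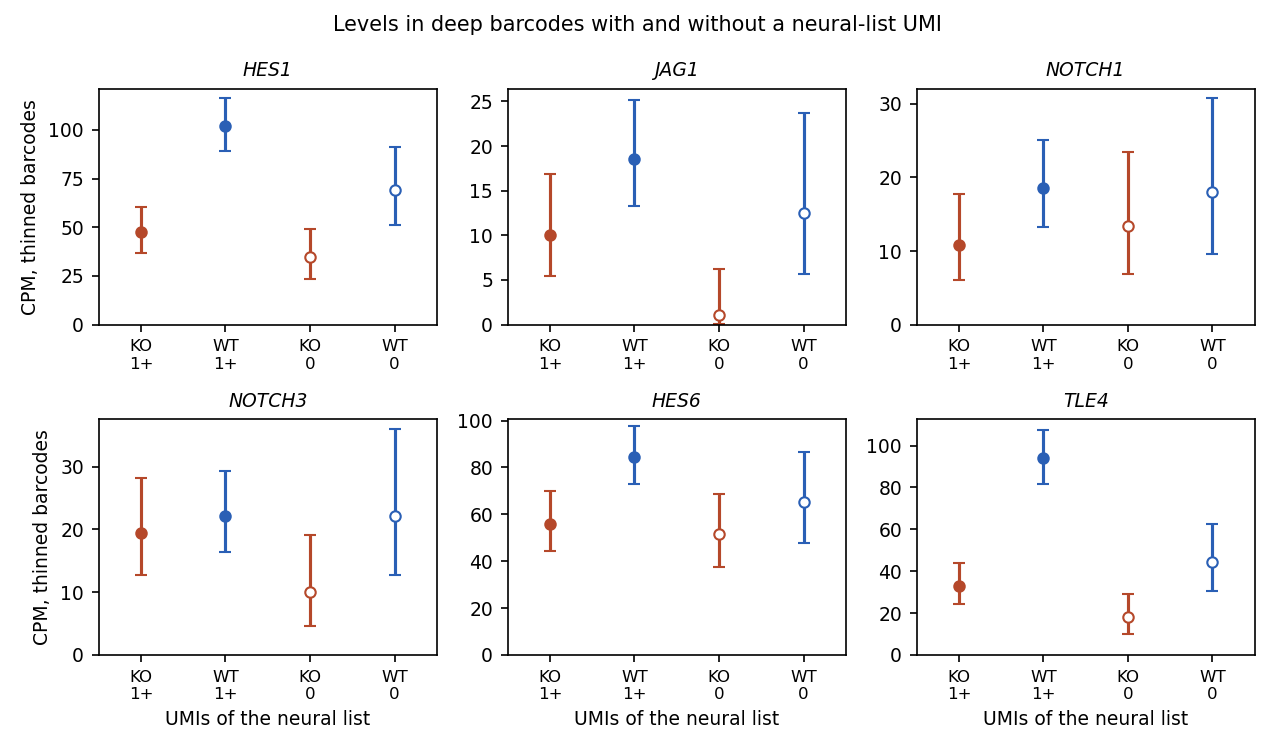
Level in CPM of HES1, JAG1, NOTCH1, NOTCH3, HES6 and TLE4 in thinned deep barcodes with at least 1 UMI (filled) and with 0 UMIs (open) of the 30-gene neural list, KO (red) left of WT (blue), with 95% Poisson intervals. HES1 had 47.4 CPM in KO and 102 CPM in WT with a neural UMI, and 34.7 CPM in KO and 69.3 CPM in WT without one.

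The wider pathway was read from 90 other genes in written lists by role, of which 88 were listed. In deep barcodes 50 were measured, 11 of them at least 1.5-fold lower in KO and 0 higher, a share to be read against the 13.0% lower among all genes, with a median log2 ratio of -0.25. All genes measured there had a median of -0.14. In shallow barcodes 51 were measured, 12 lower and 1 higher, with a median of -0.28, against 10.1% lower, 2.79% higher and a median of -0.15 among all genes. RBPJ, the DNA-binding partner of the receptors, differed between the libraries by no more than counting error, at 266.5 CPM in KO and 261.9 CPM in WT deep barcodes (log2 ratio 0.03, -0.10 to 0.15) and 274.0 CPM in KO and 277.8 CPM in WT shallow barcodes (-0.02, -0.07 to 0.03). Of its 9-gene nuclear complex list, 1 of 6 measured members was lower, the coactivator MAML1, with 10.7 CPM in KO and 17.2 CPM in WT. In shallow barcodes the 1 lower member of 7 was its relative MAML3, at 3.27 CPM in KO and 6.98 CPM in WT. MAML3 passed the minimum only through WT. SNW1 and CREBBP, also cofactors, had log2 ratios of -0.26 and -0.24 in deep barcodes.

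Of the other genes in the written list of targets, 3 of 7 measured were at least 1.5-fold lower in KO deep barcodes. In shallow barcodes 4 were lower and 1 higher. Among all genes 13.0% were lower in deep barcodes, and 10.1% were lower and 2.79% higher in shallow barcodes. Those lower in both sets were SOX9, CCND1 and HES6, and in shallow barcodes CDKN1A joined them, at 9.30 CPM in KO and 15.6 CPM in WT. SOX9, a transcription factor of neural crest and other progenitors, had 28 UMIs or 7.85 CPM in KO and 126 UMIs or 27.1 CPM in WT deep barcodes, with log2 ratio -1.79 (-2.43 to -1.19) and -1.75 in shallow barcodes. CCND1, the cyclin D1 gene, had 63.9 CPM in KO and 154 CPM in WT deep barcodes. HES6, which counteracts HES1, had 54.1 CPM in KO and 81.3 CPM in WT, with log2 ratio -0.59 (-0.85 to -0.33) in deep and -0.61 in shallow barcodes. It is counted here because it was on the written list, and whether NOTCH acts on it in these cells was not tested. HES5 was not analysed here. NRARP had a log2 ratio of -0.25 (-0.92 to 0.41) in deep and -0.37 (-0.66 to -0.09) in shallow barcodes. MYC was higher in KO, at 0.42 (-0.05 to 0.89) in deep and 0.45 (0.25 to 0.65) in shallow barcodes. HEY2, named after its values were seen, was higher too, with 9.25 CPM in KO and 6.24 CPM in WT deep barcodes. Its interval there, -0.20 to 1.34, held 0. In shallow barcodes it had 267 UMIs or 12.7 CPM in KO and 180 UMIs or 7.57 CPM in WT, with log2 ratio 0.74 (0.46 to 1.02). HEY1 and HEY2 thus had ratios of opposite sign in the same libraries, with intervals that lie apart in shallow barcodes. HEY2 and HES6 each overlap a gene on the other strand.

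Other lists held genes that act on the receptor, its ligands or its signal. Their counts of genes at least 1.5-fold lower in KO stand against the share among all genes, 13.0% in deep and 10.1% in shallow barcodes. Of the corepressors 2 of 13 measured were lower in deep barcodes, namely TLE4 and SPEN, and 1 of 13 in shallow barcodes, TLE4. TLE4, a Groucho-family corepressor that HES proteins recruit, had 93 UMIs or 26.1 CPM in KO and 345 UMIs or 74.2 CPM in WT, with log2 ratio -1.51 (-1.86 to -1.17) and -1.26 (-1.38 to -1.14) in shallow barcodes. Among thinned barcodes without a neural UMI it had 17.9 CPM in KO and 44.3 CPM in WT, and among those with one 33.0 CPM in KO and 94.0 CPM in WT. SPEN, a corepressor bound to RBPJ when no NOTCH signal arrives, had 35.9 CPM in KO and 64.5 CPM in WT deep barcodes, and its log2 ratio of -0.85 was -0.38 in shallow barcodes. TLE5 was at -0.31 in deep and -0.06 in shallow barcodes. For trafficking and turnover 2 of 12 were lower in deep barcodes, against the 13.0% of all genes. MIB1, the ubiquitin ligase that lets ligands be internalised, had 31.4 CPM in KO and 62.4 CPM in WT, and DTX4, a Deltex ligase, had 8.41 CPM in KO and 18.9 CPM in WT. ITCH, a ligase that acts on NOTCH, had a log2 ratio of -0.45 (-0.94 to 0.03). DTX4 and MIB1 overlap genes on the other strand.

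Of the cleavage genes, PSEN2, a catalytic subunit of the γ-secretase that frees the intracellular part, had 7.85 CPM in KO and 12.3 CPM in WT deep barcodes. Its log2 ratio was -0.64, and 0 lay inside the interval (-1.35 to 0.03). ADAM10, the protease of the preceding cut, was at -0.18 (-0.47 to 0.11). In shallow barcodes the protease ADAM17 had 4.51 CPM in KO and 7.02 CPM in WT, and the γ-secretase subunit NCSTN had 6.02 CPM in KO and 9.59 CPM in WT. ADAM17 passed the minimum of 5 CPM only through WT. In deep barcodes it did not pass, with log2 ratio -0.20 (-1.29 to 0.84), and NCSTN had -0.34 (-1.16 to 0.44). Of the glycosylation genes 1 of 5 was lower in each set, POFUT1, the enzyme that adds the fucose which LFNG extends, with 6.17 CPM in KO and 10.8 CPM in WT deep barcodes, and log2 ratio -0.80 (-1.60 to -0.05). The other 3 named, XXYLT1, GXYLT1 and POGLUT1, had log2 ratios of -0.45, -0.43 and -0.27. DLK1, a non-canonical ligand, was the one measured gene among 6 other ligands, at 25.8 CPM in KO and 38.5 CPM in WT deep barcodes and -0.58 in both sets, just inside 1.5-fold.

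**Figure D5:**
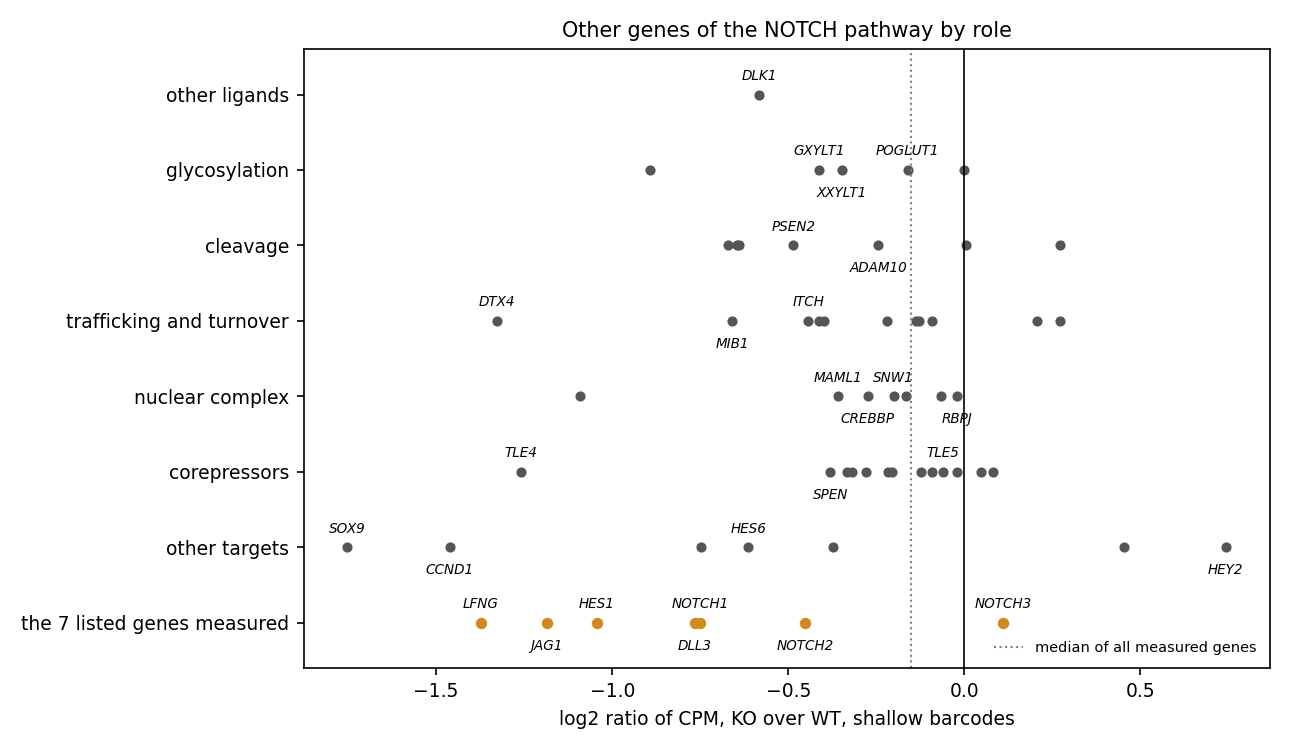
Log2 ratio of CPM, KO over WT, in shallow barcodes for each measured pathway gene by role (grey) and the 7 listed genes measured (orange); the dotted line is the median of all measured genes and no intervals are drawn. RBPJ lies at -0.02 and HEY2 at 0.74, while SOX9 lies at -1.75 and CCND1 at -1.46.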

How the data were processed

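For 1 KO and 1 WT library the authors deposited whole-number UMI counts for each gene in each barcode, without normalization. Per the submitters' processing notes, the build was hg38 and the tools included STAR 2.7.10a, UMI-tools 1.1.2, Subread and featureCounts 2.0.1. The annotation, the use of strand and any barcode filter were not given in the sources used here. The KO table holds 15 entries beyond the number in its size line, and these were included. Barcodes have 3 segments of 6 bases with 96 sequences each, and 255 deep KO and 301 deep WT barcodes had a namesake of at least 250 UMIs in the other library. Doublets were not removed.

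Counts were summed per barcode set and converted to CPM. Levels have exact Poisson, ratios exact conditional binomial and shares exact Clopper-Pearson intervals, from functions tested on simulated data. Python 3.11.15, NumPy 2.4.6, SciPy 1.17.1, pandas 2.3.3 and Matplotlib 3.10.9 were used. Coordinates and promoters are from RefSeq on GRCh38, and overlaps from a GENCODE annotation of that build. The listed genes, the other pathway lists and the marker lists were chosen with earlier results of these data known. All listed genes are named. Of the other pathway genes, up to 3 per role with the largest absolute log2 ratio in deep barcodes at a mean of at least 10 CPM are named, with RBPJ, HES5 and HES6. POFUT1, NCSTN, ADAM17, MAML3, CDKN1A, HEY2, NRARP, MYC, NOTCH2NLB, NOTCH2NLC and the single markers were named after their values were seen. A gene that the rule names, and the results that need it, are not reported here.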

Additional observations from a re-analysis of the deposited data

How the results depend on the processing

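No paired analysis was possible because the genotypes have 1 library each, and for the same reason no library could be left out. The count of listed genes at least 1.5-fold lower in KO deep barcodes was 3 of 7, against 13.0% of all genes. It was 5 of 7 with a minimum of 500 UMIs, against 10.5%. With a minimum of 250 UMIs, an alternative added after the data were seen, it was 5 of 7, against 9.97%. With a minimum of 2000 UMIs, 4 of 7 were lower, against 18.5% of all genes, and 1 was at least 1.5-fold higher, against 7.68%. The gene higher there was LFNG, whose log2 ratio turned to 1.61 on 9 KO and 4 WT UMIs. In shallow barcodes the count lower in KO was 5 of 7, against 10.1% of all genes. It was 3 of 5 measured at a mean of at least 10 CPM, against 8.02% of all genes, and 3 of 7 at a limit of 2-fold, against 2.85%. JAG1 passed the 10 CPM minimum there only through WT, with 9.63 CPM in KO and 21.9 CPM in WT. The log2 ratio of HES1 in deep barcodes ranged from -1.15 to -0.93 and that of JAG1 from -1.71 to -1.10 over 13 alternatives. NOTCH1 ranged from -0.72 to 0.05, NOTCH2 from -0.76 to 0.52, NOTCH3 from -1.58 to 0.06 and DLL3 from -0.73 to 0.25. In deep barcodes without neural UMIs lay the highest values of NOTCH1 (13 KO and 9 WT UMIs) and NOTCH2 (6 KO and 3 WT UMIs) and the lowest of NOTCH3 (7 KO and 15 WT UMIs). Scaling by the median ratio moved all log2 ratios up by 0.12. The share of genes at least 1.5-fold lower in KO was then 9.07% in deep and 6.31% in shallow barcodes, with 6.11% and 4.53% higher. HES1 was then less than 2-fold lower in KO, with log2 ratio -0.96 in deep and -0.93 in shallow barcodes. JAG1 stayed more than 2-fold lower, at -1.39 and -1.07. By the same scaling, NOTCH3 in shallow barcodes had log2 ratio 0.23 (0.07 to 0.39). Scaled without mitochondrial and ribosomal protein genes it had 0.17 (0.009 to 0.335), and in CPM 0.11 (-0.05 to 0.27). Depth limits the receptors and LFNG in deep barcodes, HES4, HEY1 and all statements on single barcodes.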
